A study of Mus musculus with 8 samples.

Results

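Inhibitory receptors and TOX factors are described here in splenic T cells of autoimmune Faslpr mice with and without Eaf2. The set has 10 genes, taken by symbol from a table of 17384 genes: the receptors Pdcd1 (PD-1), Lag3, Havcr2 (TIM-3), Tigit, Btla and Cd160, the surface proteins Cd200 and Vsir (VISTA), and the transcription factors Tox and Tox2. RNA came from spleen cells sorted as B220+CD3+, from Faslpr mice (libraries titled Faslpr) and from Eaf2-/-Faslpr mice (libraries titled EAF2Faslpr), with 4 libraries in each group. Faslpr is an insertion in the death receptor gene Fas that both groups carry, so neither group has normal Fas function and every comparison is of Eaf2 within that background. Faslpr mice accumulate T cells that carry B220, an isoform of CD45 usually seen on B cells. The labels give neither the age, sex and strain of the mice nor the number of animals per library or the deleted part of Eaf2, so p-values measure the spread between these libraries, which may be technical.

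Inhibitory receptors are membrane proteins that dampen T cell receptor signalling once they bind a ligand on another cell. PD-1, BTLA and TIGIT do so through tyrosine motifs in their cytoplasmic tails that recruit phosphatases such as SHP-1, the product of Ptpn6. T cells that meet antigen persistently carry several of these receptors at once and hold TOX, a nuclear HMG-box protein needed for that state. Follicular helper T cells, which assist B cells, also carry PD-1, BTLA, TIGIT and CD200 and use TOX2, and several of the receptors are found on B cells, NK cells or myeloid cells as well.

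All 10 genes had enough reads to be tested. Btla, Cd200 and Tox2 were higher and Pdcd1 was lower in EAF2Faslpr libraries, and the other 6 genes did not pass an adjusted p of 0.05 (edgeR's quasi-likelihood test, Benjamini-Hochberg adjusted over 12340 genes). Of all tested genes 12.1% passed, 7.14% higher and 4.96% lower. The same 4 of 10 genes had levels that did not overlap between groups, 3 higher and 1 lower, against 17.7% of all tested genes (9.71% higher and 7.96% lower). Without EAF2Faslpr replicates 1 and 3, which stood apart from the other libraries in several values given further on, the same 4 genes and Tigit passed. These libraries were chosen after seeing the data, Tigit and Tox2 values included, and 2 libraries were left in that group. In bulk RNA, a change in the number of cells of a type and a change in RNA per cell cannot be told apart. The median log2 fold change of the 10 genes was 0.26, against −0.01 over all tested genes.

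Windows of 250 bases upstream of the annotated start are shown for Pdcd1, Btla and Cd200, the 3 genes that passed in every fit that left out 1 library and that have 1 annotated start each, to give the regulatory sequence beside genes that moved in opposite directions. They are RefSeq sequences of GRCm38.p6, read 5′ to 3′ on the strand of the gene, and capitals mark matches to GGAAA, the NFAT core letters, on either strand. The windows lie at chr1:94052554-94052803 (Pdcd1, minus strand), chr16:45224087-45224336 (Btla, plus strand) and chr16:45409054-45409303 (Cd200, minus strand).
Pdcd1: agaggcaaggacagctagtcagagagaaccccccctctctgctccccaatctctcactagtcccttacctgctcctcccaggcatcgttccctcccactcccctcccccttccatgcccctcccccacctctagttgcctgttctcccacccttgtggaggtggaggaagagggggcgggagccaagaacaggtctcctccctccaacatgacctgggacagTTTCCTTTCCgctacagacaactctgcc
Btla: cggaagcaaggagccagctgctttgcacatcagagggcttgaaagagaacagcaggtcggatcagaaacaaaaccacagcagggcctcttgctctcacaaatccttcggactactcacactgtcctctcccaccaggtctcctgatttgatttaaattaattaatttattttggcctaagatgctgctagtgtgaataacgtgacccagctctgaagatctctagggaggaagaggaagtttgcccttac
Cd200: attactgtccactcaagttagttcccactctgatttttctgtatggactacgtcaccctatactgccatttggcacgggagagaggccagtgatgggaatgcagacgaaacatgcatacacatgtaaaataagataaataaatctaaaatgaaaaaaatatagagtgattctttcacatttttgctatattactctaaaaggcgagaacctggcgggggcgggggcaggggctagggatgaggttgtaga

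The Pdcd1 window held 2 adjoining GGAAA matches on the opposite strand, which begin 28 and 23 bases before the start, and the Btla and Cd200 windows held none. Of 32851 promoter windows of this length in the table, 55.6% held GGAAA. None of the 3 windows held the AP-1 letters TGANTCA, which 6.75% of all windows held. These are letter matches only, and no binding was measured.

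Eaf2 itself, the gene removed, was measured at 4.43, 4.20, 4.02 and 6.29 CPM (TMM-scaled reads of the gene per megaread) in EAF2Faslpr replicates 1 to 4 and at 25.7, 24.2, 20.7 and 31.5 CPM in Faslpr replicates 1 to 4. Its log2 fold change was −2.43 (SE 0.18, adjusted p = 2.9e-05 by edgeR), so all 8 libraries matched their titles. Fas, the gene both groups carry in mutant form, was at 64.2 ± 6.87 against 54.3 ± 9.82 CPM (mean ± SD, n = 4; adjusted p = 0.276 by edgeR over 8 libraries), and it passed without Faslpr replicate 4 (adjusted p = 0.0415). Libraries held between 15.6 and 18.6 megareads of estimated counts, and a floor of 3 reads was worth 0.161 to 0.193 CPM.

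**Figure D1:**
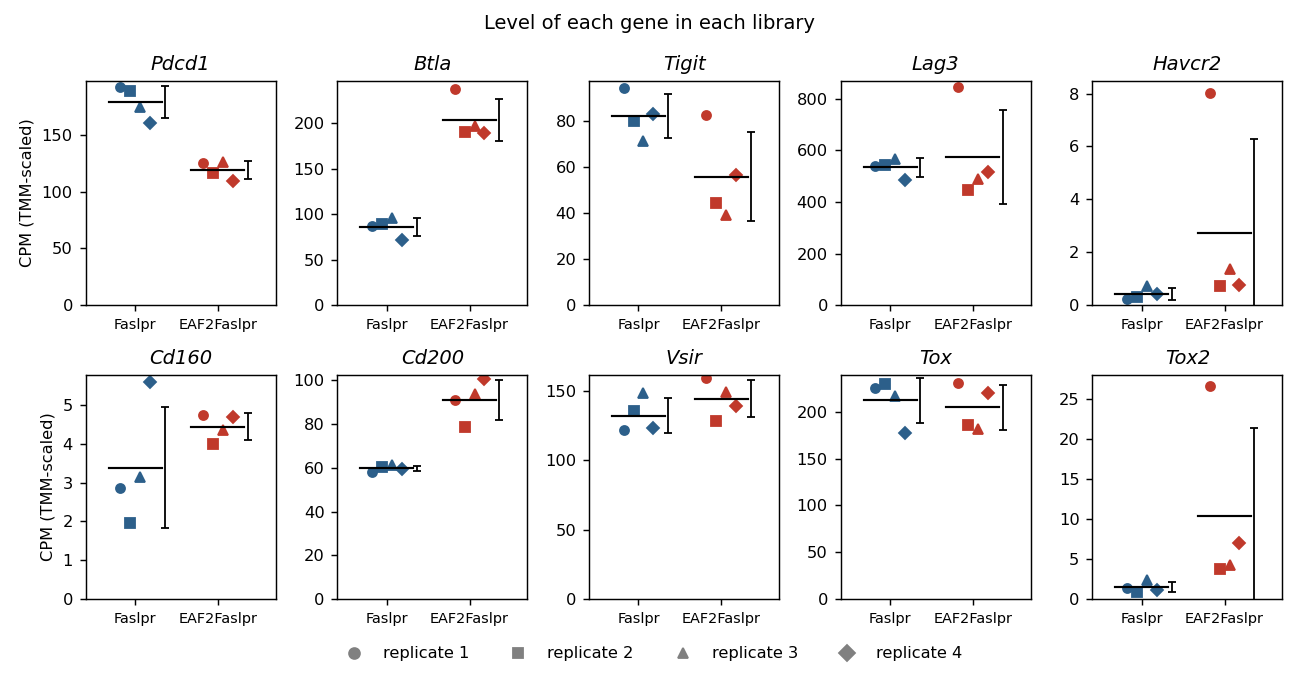
Level of each of the 10 genes in each library, in CPM on linear axes that start at 0. Points are libraries with 1 symbol per replicate number, horizontal lines are group means and bars beside them are ± 1 SD (n = 4), cut at 0 for Havcr2 and Tox2; Btla and Cd200 are separated upward and Pdcd1 downward, and EAF2Faslpr replicate 1 stands above the other libraries for Havcr2, Tox2 and Lag3.

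Pdcd1 (Entrez 18566, chromosome 1) encodes PD-1, the receptor for the ligands PD-L1 and PD-L2. It was at 125, 116, 126 and 109 CPM in EAF2Faslpr replicates 1 to 4 and at 192, 188, 174 and 160.2 CPM in Faslpr replicates 1 to 4. Every EAF2Faslpr library lay below every Faslpr library. Pdcd1 fell 1.5-fold, with a log2 fold change of −0.59 (SE 0.08, adjusted p = 0.00125 by edgeR), and still passed whichever single library was dropped (adjusted p up to 0.00587).

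Btla (Entrez 208154, chromosome 16) encodes a receptor of the immunoglobulin family that binds HVEM, the product of Tnfrsf14. Its levels were 238, 190.3, 197 and 189 CPM in EAF2Faslpr replicates 1 to 4 and 87.0, 89.4, 95.9 and 71.8 CPM in Faslpr replicates 1 to 4. The groups were separated by a gap wider than the range of the Faslpr libraries, and EAF2Faslpr replicate 1 was the highest of all. Btla rose 2.37-fold (log2 fold change 1.24, SE 0.11, adjusted p = 8.21e-05 by edgeR) and passed in each of 8 leave-one-out fits.

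Tigit (Entrez 100043314, chromosome 16) encodes a receptor that competes with the activating receptor CD226 for the ligand PVR. It was at 82.8, 44.4, 39.3 and 56.7 CPM in EAF2Faslpr replicates 1 to 4 and at 94.5, 80.3, 71.4 and 83.2 CPM in Faslpr replicates 1 to 4. Replicates 2, 3 and 4 of EAF2Faslpr lay below the Faslpr range and replicate 1 lay inside it. The log2 fold change was −0.56 (SE 0.20) and did not pass (adjusted p = 0.107 by edgeR). It was −0.81 without EAF2Faslpr replicate 1 and passed there (adjusted p = 0.00555), and it also passed by DESeq2 over 8 libraries (adjusted p = 0.0443).

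Lag3 (Entrez 16768, chromosome 6), a CD4-related receptor for MHC class II, had the highest FPKM of the 10 genes. It was at 846, 445, 490.2 and 517 CPM in EAF2Faslpr replicates 1 to 4 and at 541, 543, 567 and 484 CPM in Faslpr replicates 1 to 4. Replicate 1 of EAF2Faslpr was above every other library, and the other 3 lay in or just below the Faslpr range. The log2 fold change of 0.11 (SE 0.18, adjusted p = 0.775 by edgeR) turned to −0.14 without that library, and neither value passed.

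Havcr2 (Entrez 171285, chromosome 11) encodes TIM-3, a receptor of terminally stimulated T cells and of myeloid cells. Its levels were 8.03, 0.710, 1.38 and 0.773 CPM in EAF2Faslpr replicates 1 to 4 and 0.229, 0.298, 0.715 and 0.430 CPM in Faslpr replicates 1 to 4, the last between 4.01 and 12.7 estimated reads per library. Outside EAF2Faslpr replicate 1 the gene was close to the floor in both groups. The log2 fold change was 2.65 (SE 0.84, adjusted p = 0.0698 by edgeR), 1.17 without EAF2Faslpr replicate 1, and it passed in 1 of 8 leave-one-out fits, without EAF2Faslpr replicate 2 (adjusted p = 0.0449). Cd160 (Entrez 54215, chromosome 3), a receptor that shares HVEM with BTLA, was at 4.45 ± 0.354 against 3.39 ± 1.55 CPM (n = 4 each), with overlapping groups and a log2 fold change of 0.39 (edgeR adjusted p = 0.452). Its highest level, 5.59 CPM, was in Faslpr replicate 4.

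**Figure D2:**
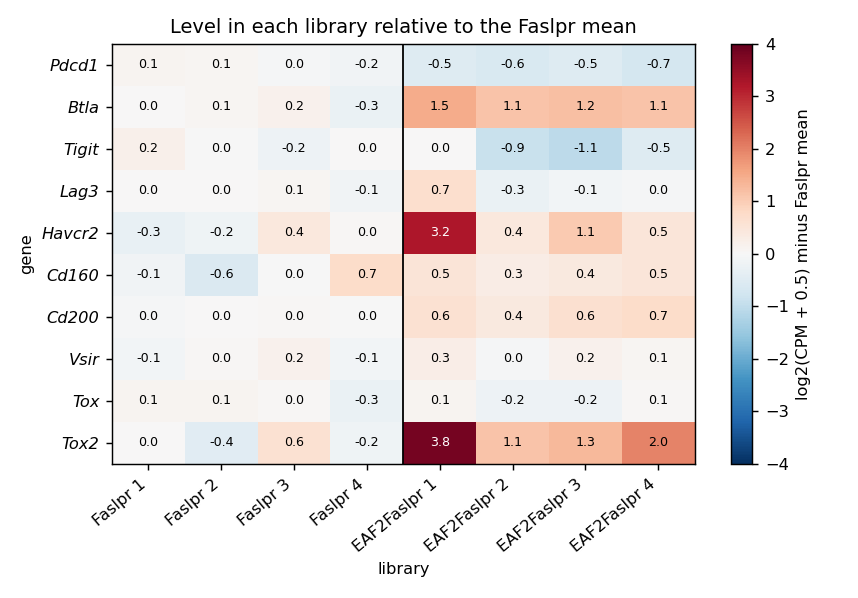
Each library's level of each of the 10 genes as log2(CPM + 0.5) minus the mean of the 4 Faslpr libraries, with libraries in columns and genes in rows. The EAF2Faslpr columns are negative for Pdcd1 and positive for Btla, Cd200 and Tox2 throughout, and the column of EAF2Faslpr replicate 1 holds the largest differences, for Tox2 and Havcr2.

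Cd200 (Entrez 17470, chromosome 16) encodes a surface protein that signals to the receptor CD200R on myeloid and some lymphoid cells. It was at 91.2, 78.5, 93.8 and 100.4 CPM in EAF2Faslpr replicates 1 to 4 and at 58.1, 60.2, 61.3 and 59.2 CPM in Faslpr replicates 1 to 4. All EAF2Faslpr libraries were above the narrow Faslpr range. Cd200 rose 1.52-fold (log2 fold change 0.61, SE 0.08, adjusted p = 0.00114 by edgeR) and passed in each of 8 leave-one-out fits. Vsir (Entrez 74048, chromosome 10) encodes VISTA, an inhibitory protein of T cells and myeloid cells. It ranged from 129 to 159.6 CPM in EAF2Faslpr and from 122 to 148 CPM in Faslpr libraries, with overlapping groups (log2 fold change 0.12, SE 0.09, edgeR adjusted p = 0.445).

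Tox (Entrez 252838, chromosome 4) and its paralogue Tox2 (Entrez 269389, chromosome 2) differed from each other in level and in behaviour over the libraries. Tox was at 231, 186, 182 and 220.3 CPM in EAF2Faslpr replicates 1 to 4 and at 226, 229.6, 217 and 177 CPM in Faslpr replicates 1 to 4. The ranges overlapped almost fully, with a log2 fold change of −0.05 (SE 0.11, edgeR adjusted p = 0.809).

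Tox2, a factor of follicular helper T cells, was at 26.7, 3.71, 4.19 and 6.95 CPM in EAF2Faslpr replicates 1 to 4 and at 1.43, 0.894, 2.37 and 1.18 CPM in Faslpr replicates 1 to 4. All EAF2Faslpr libraries were above all Faslpr libraries, and replicate 1 was far above the other 3. Tox2 rose 6.98-fold (log2 fold change 2.80, SE 0.65, adjusted p = 0.0192 by edgeR). The log2 fold change was 1.75 without EAF2Faslpr replicate 1 and still passed (edgeR adjusted p = 0.0125), whereas the call was lost without Faslpr replicate 1, 2 or 4 (adjusted p up to 0.0641) and by limma-voom (adjusted p = 0.0733).

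Per transcript length the order of the 10 genes differed between groups. In Faslpr libraries the authors' FPKM (fragments per kilobase and megaread) put Lag3 first (272 ± 18.2, mean ± SD, n = 4), then Pdcd1 (94.3 ± 7.25), Tigit (83.7 ± 8.99), Tox (64.9 ± 7.54), Vsir (27.5 ± 2.71), Cd200 (26.5 ± 0.803) and Btla (26.3 ± 3.14). Cd160 (1.37 ± 0.627), Tox2 (0.497 ± 0.218) and Havcr2 (0.150 ± 0.0787) came last. The ranges of Pdcd1 and Tigit overlapped, as did those of Vsir, Cd200 and Btla and those of Cd160 and Tox2, so the order within these runs is not set beyond the spread.

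In EAF2Faslpr libraries Lag3 again came first in FPKM (295 ± 93.4, n = 4). Tox (63.6 ± 7.78), Pdcd1 (63.3 ± 4.56), Btla (63.0 ± 7.06) and Tigit (59.0 ± 20.2) followed with overlapping ranges, then Cd200 (40.6 ± 4.10), whose range overlapped that of Tigit, and Vsir (30.2 ± 2.86), whose range was below that of Cd200. Tox2 (3.62 ± 3.83), Cd160 (1.81 ± 0.140) and Havcr2 (1.02 ± 1.33) were last, with overlapping ranges. The FPKM ratio of Btla to Pdcd1 was between 0.259 and 0.318 in Faslpr libraries and between 0.915 and 1.11 in EAF2Faslpr libraries.

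Genes that share the pathway with these receptors were taken from 4 lists of 55 genes in all, of which 49 could be tested. Of these 49, 11 were higher and 2 lower in EAF2Faslpr libraries, beside 7.14% and 4.96% of all tested genes. Without EAF2Faslpr replicate 3, 8 of the 49 passed, 7 higher and 1 lower.

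Among 16 ligands and counter-receptors, 12 were tested and 2 passed, both higher, with a list median log2 fold change of 0.16. Cd86, the ligand of CD28 and CTLA-4, rose 3.39-fold from 0.917 ± 0.373 to 3.13 ± 0.641 CPM (edgeR adjusted p = 0.00501). Ceacam1, a binding partner of TIM-3, reached 10.6 CPM in EAF2Faslpr replicate 3, where the rest of the group spanned 2.18 to 3.75 CPM, and its log2 fold change of 1.87 (edgeR adjusted p = 0.0433) became 1.17 without that library and did not pass. Ceacam1 also lost its call without EAF2Faslpr replicate 2 or 4 or Faslpr replicate 1, 2 or 4 (adjusted p up to 0.114).

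The ligands of the 3 receptors or surface proteins that passed did not pass themselves. Cd274, the gene of PD-L1, was at 47.3 ± 4.68 against 42.9 ± 1.69 CPM (n = 4 each, edgeR adjusted p = 0.342), and Pdcd1lg2, that of PD-L2, at 8.99 ± 1.45 against 7.10 ± 0.735 CPM (edgeR adjusted p = 0.195). Tnfrsf14, which encodes the BTLA ligand HVEM, was at 202 ± 18.9 against 196 ± 38.7 CPM (edgeR adjusted p = 0.885). Cd200r1, which encodes the receptor of CD200, was at 5.15 ± 0.874 against 3.61 ± 0.631 CPM (edgeR adjusted p = 0.127).

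The list of other coinhibitory receptors holds 12 genes, among them Entpd1 and Nt5e, which encode surface enzymes. Of 10 tested genes 6 were higher and none lower, with a median log2 fold change of 1.04. Cd244a (log2 fold change 1.04), Cd5 (0.35), Nt5e (−0.12) and Entpd1 (−0.55) did not pass. Cd96, which binds PVR as TIGIT does, rose 2.91-fold from 7.25 ± 1.05 to 21.1 ± 4.50 CPM (edgeR adjusted p = 0.000395). Lilrb4a, an inhibitory receptor of myeloid and some lymphoid cells, rose 3.75-fold from 0.729 ± 0.264 to 2.76 ± 0.755 CPM, and Cd72, a receptor known from B cells, rose 2.09-fold. Ctla4, which competes with CD28 for CD80 and CD86, rose 1.38-fold (204 ± 26.6 against 148 ± 14.4 CPM, edgeR adjusted p = 0.0181), with groups that overlapped slightly. It lost its call without EAF2Faslpr replicate 3 or Faslpr replicate 1 (adjusted p up to 0.0549). The other 2 were Cd101, lost without EAF2Faslpr replicate 1, 3 or 4 or Faslpr replicate 1, 2 or 4 (adjusted p up to 0.0633), and Lair1, lost without any 1 EAF2Faslpr library or Faslpr replicate 2 (adjusted p up to 0.0963). Beside this list, markers of B cells moved the same way (12 of 12 higher, summed 333 to 652 against 66.6 to 138 CPM). Markers of macrophages and monocytes did so in part (3 of 8 higher, 67.4 to 159 against 51.6 to 66.3 CPM). Csf1r and Adgre1 of that list had positive and Cd68 and Cd14 negative log2 fold changes, and none of these passed. The part of either cell type in the values of the coinhibitory list was not tested.

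Among 8 phosphatases and adaptors that act below the receptors 1 passed, with a list median of 0.03. Ptpn6, which encodes the phosphatase SHP-1, rose 2.14-fold from 40.1 ± 8.93 to 86.1 ± 12.0 CPM (edgeR adjusted p = 0.00168). Markers of B cells, and in part those of macrophages and monocytes, were higher in the same libraries. The part of these cells in the values of Ptpn6 and Cd86 was not tested. Of 19 transcription factors of chronically stimulated T cells, 2 were higher and 2 lower, with a list median of −0.02. Nr4a1, an orphan nuclear receptor induced by antigen receptor signals, rose 1.81-fold (154 ± 15.4 against 85.5 ± 8.29 CPM) and Id2, an inhibitor of E proteins, rose 2.33-fold. Tox4, another TOX family gene, fell 1.25-fold (121 ± 5.78 against 151 ± 10.1 CPM, edgeR adjusted p = 0.0155), and Nr4a3 fell 1.46-fold but lost its call without EAF2Faslpr replicate 1, 2 or 3 or Faslpr replicate 1 or 4 (adjusted p up to 0.0765).

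**Figure D3:**
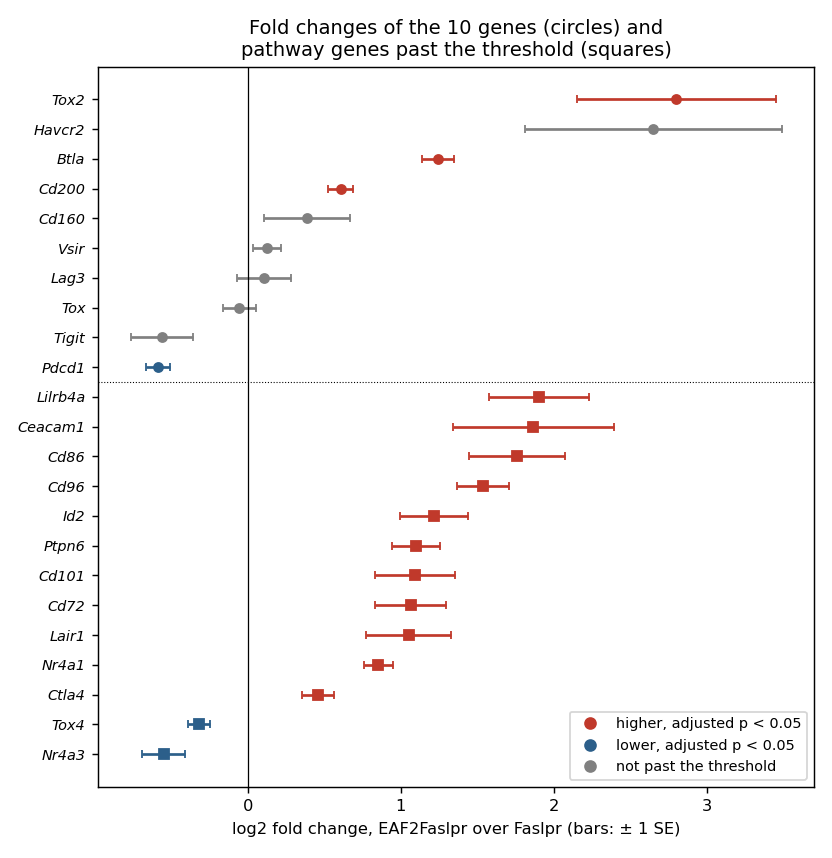
Log2 fold change of EAF2Faslpr over Faslpr for the 10 genes (circles, above the dotted line) and for the pathway genes that passed (squares), with bars of ± 1 SE and colour by call at an adjusted p of 0.05. Btla, at 1.24, and Cd200, at 0.61, have short bars, and those of Tox2 and Havcr2 are the longest of the 10.

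Tigit, Btla and Cd200 lie on chromosome 16, the chromosome that carries Eaf2. By gene order in the GRCm38.p6 table, 29, 51 and 52 genes of the deposited table stand between Eaf2 and Tigit, Btla and Cd200, respectively. Cd86, with 2 deposited genes between it and Eaf2 on the other side, and Cd96, with 62 between, lie on this chromosome too, as do Cd80 (20 between) and Cd200r1 (44 between), which did not pass, and Igsf11 and Nectin3, which had too few reads to be tested. Of the 42 tested genes from Eaf2 to Cd200, Eaf2 not counted, 6 were higher and 1 lower (16.7%), against 9.79% on the rest of chromosome 16 and 12.1% on other chromosomes. Without Btla, Cd200 and Tigit themselves 12.8% of the 39 passed. These shares depend on where the stretch is cut. Cd86, before Eaf2, and Abhd10, Plcxd2 and Cd96, just past Cd200, were higher and are counted with the rest of the chromosome. Gcsam and Phldb2, also just past Cd200, did not pass.

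In that stretch Arhgap31 was at a mean of 38.8 against 0.337 CPM and had a log2 fold change of 6.81. B4galt4, the next tested gene, was at a mean of 1.95 CPM in EAF2Faslpr and below the floor of 3 reads in Faslpr libraries. The nearest tested gene on the other side of Eaf2, the peptide transporter gene Slc15a2, was at a mean of 23.3 against 0.605 CPM, with a log2 fold change of 5.25 (edgeR adjusted p = 0.000432), and is counted with the rest of the chromosome. A mouse line made by gene targeting can keep a stretch of the donor strain around the altered gene. Whether such a stretch reached Btla and Cd200 was not tested, and for these genes the loss of Eaf2 and a linked difference cannot be told apart here. Pdcd1 (chromosome 1), Tox2 (chromosome 2) and the other 5 genes lie elsewhere.

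**Figure D4:**
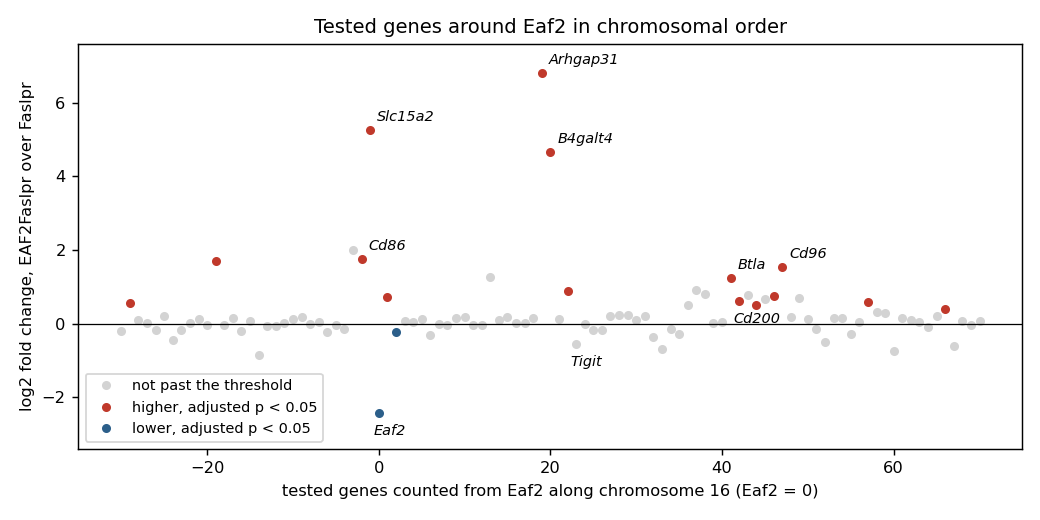
Log2 fold change of tested genes against their place in gene order along chromosome 16, counted from Eaf2 at 0, with colour by call. Called genes stand on both sides of Eaf2, and Btla and Cd200 are neighbours among the tested genes, near Cd96.

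Markers of the cell types that these receptors are also known from were summed in each library. The T cell list gave 4499 to 4643 CPM in EAF2Faslpr and 4315 to 4933 CPM in Faslpr libraries, with Cd3e, a chain of the sorted CD3 complex, at 557 ± 39.3 and 602 ± 52.9 CPM. By edgeR 0 of its 10 genes passed and 3 had an unadjusted p under 0.05, while DESeq2 called 2 and limma-voom 0. No gene of any marker list was at 0 in all libraries. The B cell list gave 333 to 652 CPM against 66.6 to 138 CPM, and 12 of 12 members were higher, the most abundant being Cd22 at 66.9 ± 15.9 against 16.7 ± 5.25 CPM. The libraries with higher Btla, Cd200 and Tox2 were thus also those with higher B cell transcripts, and the part of the latter in these values was not tested. Within EAF2Faslpr the B cell sum was highest in replicate 3 (652 CPM, against 333 to 354 CPM in the others), where Btla, at 197 CPM, lay between the other libraries. Without that library Btla had a log2 fold change of 1.26, Cd200 of 0.59 and Tox2 of 3.06, and all 3 passed by edgeR. The B cell sums left in EAF2Faslpr, 333 to 354 CPM, were still above the 66.6 to 138 CPM of Faslpr libraries. This fit therefore cannot tell B cell content and group apart.

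The follicular helper list gave 545 to 641 CPM against 643 to 676 CPM, with Cxcr5, the follicle homing receptor, 1.52-fold lower (239.7 ± 22.2 against 364 ± 19.7 CPM, edgeR adjusted p = 0.00114). The list median log2 fold change was 0.27 all the same. Icos (0.39), Ascl2 (0.34), Bcl6 (0.19) and Sh2d1a (0.05) had positive log2 fold changes and did not pass. Il21, the helper cytokine, was 1 of 6 higher, with overlapping groups. It reached 24.5 CPM in EAF2Faslpr replicate 1, where the rest of the group spanned 1.26 to 4.25 CPM, and its log2 fold change of 3.35 was 1.81 without that library and did not pass. Its call was also lost without EAF2Faslpr replicate 4 or Faslpr replicate 1, 2 or 4 (adjusted p up to 0.111). The regulatory T list gave 145 to 367 CPM against 85.8 to 144 CPM and had 3 of 5 members higher, among them Foxp3, its defining factor, at 4.15 ± 1.53 against 0.666 ± 0.303 CPM. Foxp3 and Il2ra passed in each of 8 leave-one-out fits, and Ikzf4 in 3 of 8 (edgeR adjusted p up to 0.0819).

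The macrophage and monocyte list gave 67.4 to 159 CPM against 51.6 to 66.3 CPM, with 3 of 8 members higher. Its top value was in EAF2Faslpr replicate 3, where Lyz2 was at 75.1 CPM, against 6.36 to 10.5 CPM in the rest of the group. Lyz2, 1 of these 3 members, passed in 5 of 8 leave-one-out fits (edgeR adjusted p up to 0.112). The neutrophil list gave 13.8 to 81.1 CPM against 12.7 to 17.3 CPM, the dendritic cell list 21.4 to 40.6 CPM against 28.1 to 48.6 CPM, and the erythroid and platelet list 4.64 to 16.9 CPM against 4.62 to 17.1 CPM. The NK cell list gave 1693 to 1927 CPM against 1948 to 2239 CPM, nearly all of it Eomes and Nkg7, while Klrb1c and Klra8 stayed under 1 CPM in every library. Of the 6 members of each of these 4 lists, only 4, 3, 3 and 3 had enough reads to be tested. By edgeR none of the tested members passed the threshold, with 3, 0, 0 and 1 at an unadjusted p under 0.05. None passed by DESeq2 or limma-voom. The plasma cell list gave 639 to 783 CPM against 805 to 930.4 CPM, with 1 of 5 members lower.

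EAF2Faslpr replicate 1 had the highest level of its group for 8 of the 10 genes, all but Pdcd1 and Cd200, and the highest of all 8 libraries for 6. In no other library were more than 6 of the genes at the top of their group. That library had a B cell sum of 333 CPM, a macrophage sum of 77.2 CPM and a neutrophil sum of 14.5 CPM, and it had the highest Il21. Its regulatory T sum, the highest of the 8 libraries at 367 CPM, was mostly Ikzf2 (307 CPM, edgeR adjusted p = 0.0510 between groups), while Foxp3 was highest in EAF2Faslpr replicate 3 (5.62 against 4.88 CPM) and Il2ra in replicate 4 (59.4 against 50.1 CPM), and Ikzf4 and Lrrc32 were at the lowest level of the group. Without it the same 4 genes passed together with Tigit. What set this library apart was not tested.

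For the 4 genes that passed, the tested genes with the most similar pattern of log2(CPM + 0.5) over the 8 libraries were found among 9927 genes with a mean of at least 5 CPM, as a description that includes the difference between the groups. Pdcd1 was most like Zswim3 (Pearson r = 0.992), Asah1 (0.991) and Ado (0.981). Btla was most like Trim30a (0.996), Olfr1033 (0.993) and Gvin1 (0.993), and Cd200 most like Mid1 (0.989), Rgs2 (0.987) and Dusp1 (0.987). Tox2 was most like Vcan (0.985), Sec14l1 (0.983) and Xdh (0.976).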

How the data were processed

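Total RNA of sorted spleen cells was sequenced in 8 libraries on DNBSEQ, per the labels' protocols. Sample titles gave the group and number of each library. The authors deposited 1 table with estimated counts per gene, not scaled to depth, and FPKM values, and a further 16 per-sample columns were not used. HISAT2 2.2.1, Bowtie2 2.4.5, RSEM 1.3.1 and build GRCm39 are named, without a role, per the submitters' processing notes. The annotation, any filter and the use of strand are unstated in these sources, so reads of overlapping genes may be shared.

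Estimated counts were rounded, genes kept by filterByExpr (12340 of 17384) and TMM scaling applied. The main test was the quasi-likelihood test of edgeR (edgeR 4.0.16, R 4.3.3), two-sided, over all 8 libraries without covariates, with Benjamini-Hochberg adjustment over all tested genes, which supplies every adjusted p unless another tool is named. SE is the absolute log2 fold change over the root of F. DESeq2 1.42.0 and limma 3.58.1 (voom) were alternatives, with other scalings, filters and left-out libraries. Deposited FPKM was used to order genes by level and for the ratio of Btla to Pdcd1. Floors cover counting error only.

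The members, gene lists and tests were chosen with earlier results of these data known. Named genes were all members, pathway genes past the threshold (up to 4 in each direction of each list) and ligands of members that passed. Cd101, Lair1, Arhgap31, B4galt4, Slc15a2, Abhd10, Plcxd2, Gcsam and Phldb2 were named after their values were seen. So were Cd244a, Cd5, Nt5e, Entpd1, Lyz2, Csf1r, Adgre1, Cd68, Cd14 and the follicular helper and regulatory T markers. Cd5, Sh2d1a, Ikzf2, Prdm1 and Eomes stood in 2 lists. The reference table (GRCm38.p6) matched 12253 tested genes by Entrez number, and of the files' build no coordinates are given.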

Additional observations from a re-analysis of the deposited data

Results flagged for a closer look

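In each group of 4 libraries the most extreme one was compared with the rest, in 44 groups of values, and chance alone marks about 1 in 20. Among the genes described, EAF2Faslpr replicate 1 stood apart for Havcr2 (8.03 CPM, against 0.710 to 1.38 CPM in the other 3), for Tox2 (26.7 CPM, against 3.71 to 6.95 CPM) and for Btla (238 CPM, against 189 to 197 CPM). For Btla the library lay above a group that was already separate from Faslpr.

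Among summed marker lists, EAF2Faslpr replicate 3 stood apart for B cell markers (652 CPM, against 333 to 354 CPM), neutrophil markers (81.1 CPM, against 13.8 to 16.4 CPM) and erythroid and platelet markers (16.9 CPM, against 4.64 to 5.46 CPM). EAF2Faslpr replicate 2 stood apart for plasma cell markers (783 CPM, against 639 to 653 CPM), and Faslpr replicate 4 for erythroid and platelet markers (17.1 CPM, against 4.62 to 6.32 CPM).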

How the results depend on the processing

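Pdcd1, Btla and Cd200 passed in the same direction under all 18 alternatives tried. The 10 genes gave between 3 and 5 calls when 1 library was left out. Same-numbered libraries shared no source in the labels, and their deviations from the group means correlated at 0.13, 0.17, 0.06 and −0.05 for numbers 1 to 4, with 2 of 4 closest to their own number. With the replicate block all the same, 5 of the 10 passed (Tigit in addition, adjusted p = 0.0203), 14 pathway genes, 7 genes from Eaf2 to Cd200 and 1425 of all genes. Leaving out 1 library gave 990 to 1599 calls over all genes, 8 to 15 over pathway genes and 6 to 8 from Eaf2 to Cd200. Without EAF2Faslpr replicates 1 and 3 together, an alternative chosen after seeing the data, 664 genes and 5 pathway genes passed, with 2 libraries left in that group. When 1 library was left out, the log2 fold change of Lag3 lay between −0.14 (without EAF2Faslpr replicate 1) and 0.21, and that of Tnfrsf14 between −0.071 (without Faslpr replicate 4) and 0.15. Lag3 was at −0.15 and Tnfrsf14 at −0.064 without EAF2Faslpr replicates 1 and 3, and Tnfrsf14 was at −0.026 without both replicates numbered 4. The cause was not tested. Scaling moved the median of all genes by less than 0.1. Havcr2 and Cd160 had few reads, which limits what can be said of them. Several genes called higher also had few estimated reads in Faslpr libraries: Tox2 15 to 43, Cd86 9 to 24, Lilrb4a 7.23 to 19.1 and Foxp3 5.67 to 17.9. The size of their fold changes is limited in the same way.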
